A study of Homo sapiens with 10 samples.

Results

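SAM, the synergistic activation mediator, was compared with a guide-only control in HEK293T cells, a human embryonic kidney line that grows in culture. The comparison rests on 4 of the 10 poly(A) RNA-seq libraries of the series, 2 labelled SAM and 2 labelled as a control with guide only, all of them chosen by their titles. Every library came from HEK293T cells treated with a lipid transfection reagent. Per the series' design text, the cells received an activator built on dead Cas9 along with a guide to HBG1, which encodes a fetal globin chain. The other 6 libraries, 2 each of the activators VP64, VPR and Suntag, entered the same model to estimate the spread. No group is labelled as holding dead Cas9 alone, and the labels do not say whether the guide of the control carried the RNA hairpins that SAM uses, so the activation domains, the Cas9 protein and the transfected load cannot be told apart in this comparison. The labels do not say whether libraries of a group came from separate cultures. P-values therefore reflect only how these libraries vary, and that variation may be technical.

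Dead Cas9 binds the DNA that its guide matches without cutting it. In SAM it carries the viral activation domain VP64, and the guide holds hairpins that bind a phage coat protein fused to the activation domains of p65, a subunit of NF-kB, and of HSF1, the regulator of the heat shock response. Several domains of different kinds are thereby brought to 1 promoter. Such systems are used to switch on single silent genes, and the transcripts that change besides the target are a usual measure of their specificity.

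The SAM libraries held 3434486 and 4435296 expected counts and the control libraries 4659135 and 6072335. The tables list 31848 numbered gene clusters with transcript identifiers, without gene names or genome positions, so HBG1 and the genes of NF-kB and heat shock targets were not located, and the cell line could not be checked against marker genes. The filter on low counts kept 13241 of them for testing, which took 99.76% to 99.83% of the counts of every library. Transcript lengths less effective lengths gave a mean fragment length of 116 and 97.51 nt in the SAM libraries and 132.9 and 129.3 nt in the control libraries. The groups do not overlap on that measure. Libraries of 1 group were not sampling copies of each other, at a chi-square of 2.28 per cluster between the SAM libraries and 2.61 between the control libraries.

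In the fit of all libraries, more clusters were called lower than higher in SAM, and most calls of at least 2-fold were rises. Of the 13241 tested clusters, 300 were called higher in SAM (2.27%) and 389 lower (2.94%) by edgeR's quasi-likelihood test at a Benjamini-Hochberg adjusted p under 0.05, 5.2% together. At least 2-fold, 73 were higher (0.551%) and 13 lower (0.0982%). The size of the change was under 0.5 log2 units for 205 of the lower clusters and for 88 of the higher ones. It reached 3 or more for 13 higher clusters and for 1 lower cluster, and lay between 2 and 3 for 15 and 2. The excess of lower clusters is one of calls. Over all tested clusters the median log2 change was 0.006. Both SAM libraries lay above both control libraries in CPM in 29.9% of them and below in 23.4%. Among the 2879 with whole-number counts in all libraries, 82 were called higher and 33 lower, against 218 and 356 among the other 10362.

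These numbers depended on every one of the 4 libraries. Without SAM replicate 1 there were 60 calls and without SAM replicate 2 there were 79. Without guide-only replicate 1 there were 135 and without guide-only replicate 2 there were 170. A group is left with 1 library in these fits, which is assumed to vary like the other groups. Leaving out libraries of other groups also moved the number, to 418 and 417 calls without VP64 replicate 1 or 2, and to 1044 and 1047 without Suntag replicate 1 or 2. The excess of large rises among the calls depended on the setting too. Without SAM replicate 2, 17 clusters were higher and 15 lower at 2-fold or more, against 16 and 4 without SAM replicate 1. Without guide-only replicate 1 they were 22 and 8, and without guide-only replicate 2 they were 33 and 16. DESeq2 called 3 higher and 3 lower at that size, or 24 and 6 without its filter on low mean counts. The fitted sizes moved less than the calls. Of the 73 rises and 13 falls, 64 and 8 kept 2-fold size without SAM replicate 1, and 71 and 13 without SAM replicate 2. These numbers were 66 and 11 without guide-only replicate 1, 69 and 10 without guide-only replicate 2, and 73 and 13 in DESeq2. In these fits 0 of the 689 calls changed direction. The Suntag libraries differed most from each other, at a chi-square per cluster of 6.14.

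**Figure D1:**
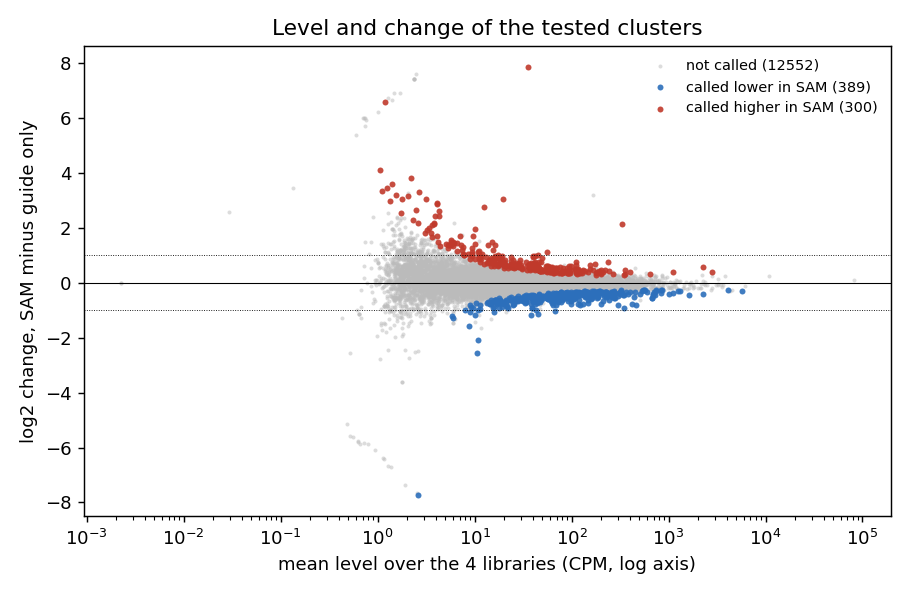
Each point is 1 of the 13241 tested clusters, with its mean level over the 2 SAM and 2 guide-only libraries in CPM (log axis) and its fitted log2 change, SAM minus guide only; dotted lines mark 2-fold. The 300 higher calls (red) reach large changes mostly at low levels, while the 389 lower calls (blue) lie mostly above 10 CPM and within 2-fold.

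Higher and lower clusters also differed in level. Levels are given as CPM, which is proportional to a cluster's share of its library's expected counts. The median level was 35.8 CPM among higher clusters, 81.2 CPM among lower ones and 26.5 CPM among those not called. As a share of all counts, higher clusters held 2.67% and 2.61% in the SAM libraries against 1.83% and 1.79% in the control libraries. Lower clusters held 5.79% in each SAM library against 7.58% and 7.61% in the control. The 2 libraries of each group are close on both shares and the groups do not overlap, which the selection of these clusters fixes. Many of the rises of 2-fold or more rested on few reads. Of the 73, 30 had fewer than 20 summed counts in the control and 9 had 3 or fewer, while 5 had 100 or more. Their median level was 5.66 CPM.

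A smaller set of calls did not depend on any single library. In 10 fits that each left out 1 of the 10 libraries, 31 of the 689 clusters were called every time, 13 higher and 18 lower, and 55 were called in 9 or more. This set was formed after the calls were seen, and its values are a description. Its higher members had a median level of 35.7 CPM (10 to 334) and a median log2 change of 1.39 (0.69 to 7.84). Its lower members had a median level of 136 CPM and, with 1 exception given below, log2 changes from -1.01 to -0.54. With the trend of each library on transcript length removed, all 31 were called as well.

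**Figure D2:**
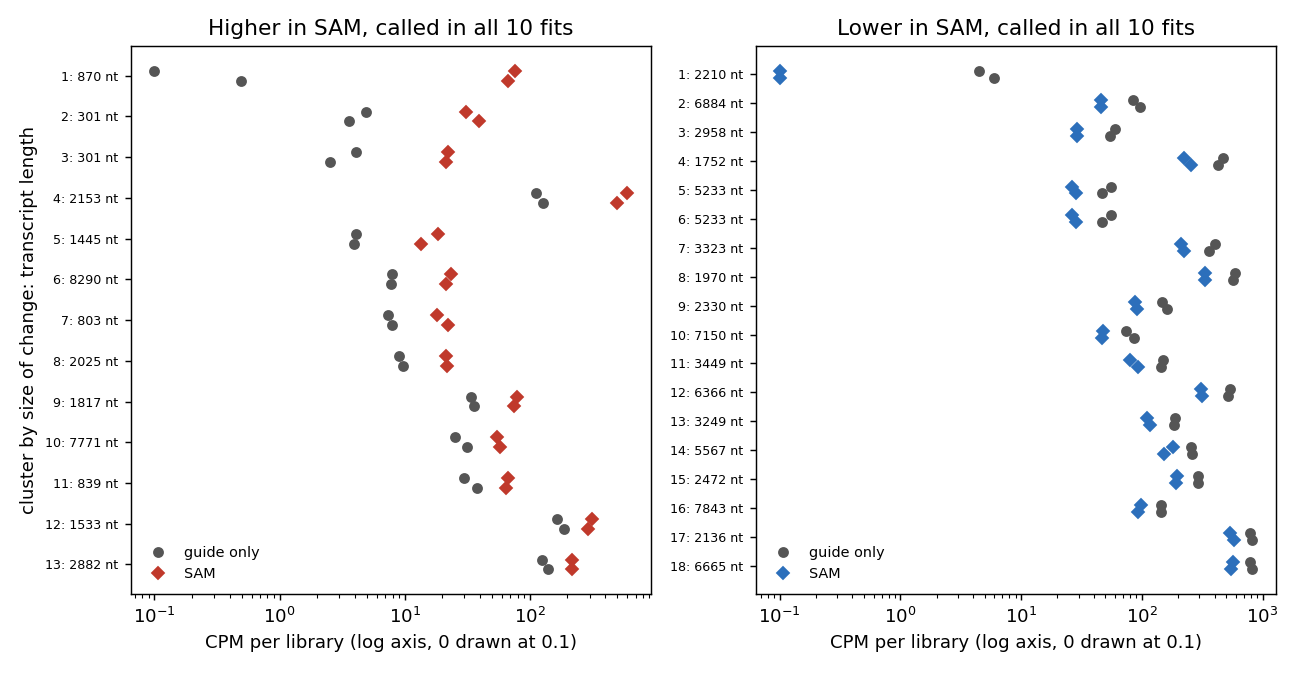
CPM (log axis) in each of the 2 SAM libraries (diamonds) and the 2 guide-only libraries (circles) for the 13 higher (left) and 18 lower (right) clusters called in all 10 fits that leave out 1 library, labelled by order of change and transcript length. In every row the SAM and guide-only libraries are apart, as in all 689 called clusters. The first higher row spans 0 to 75.7 CPM and most lower rows differ by less than 2-fold.

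Cluster 4232, of 4 transcripts with a mean length of 870 nt, had the largest rise of this set. Its level was 75.7 and 66.5 CPM in the SAM libraries and 0 and 0.494 CPM in the control libraries. Both VP64 libraries were at 0, and VPR (17.4 and 10.1 CPM) and Suntag (18.5 and 13.1 CPM) lay between. It went from 3 summed counts to 555, a ratio of 252 (95% exact Poisson interval 85.9 to 1230, counting error only), with edgeR adjusted p = 1.96e-07. On the TPM scale, which takes account of length, it stood at 236 and 186 in SAM against 0 and 1.41.

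A cluster of 2 transcripts and 2153 nt, singled out after its values were seen, was the 1 cluster over 100 CPM that was called and rose at least 2-fold. It held 2055.2 and 2194.9 expected counts in SAM against 528.8 and 773.7 in the control, or 598 and 495 CPM against 113 and 127 CPM. The SAM libraries lie far above both control libraries, and the log2 change was 2.15 ± 0.11 (SE, edgeR adjusted p = 5.9e-08). Its counts were not whole, so reads shared with another cluster may enter this level.

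Also in this set was a pair of single-transcript clusters of 301 nt. The first stood at 31.1 and 39.4 CPM in SAM against 4.92 and 3.56 CPM in the control, which is a change of 3.05 ± 0.33 log2 units (SE, edgeR adjusted p = 0.000253). The second stood at 22.2 and 21.4 CPM against 4.1 and 2.54 CPM, which is a change of 2.74 ± 0.41 log2 units (SE, edgeR adjusted p = 0.003). Neither passed the test of SAM against VP64, VPR or Suntag, with edgeR adjusted p from 0.0561 to 0.933 over the 6 contrasts. Neither has whole counts, and they may share reads.

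The other 9 higher members of the set rose by 0.69 to 1.94 log2 units. A cluster of 1 transcript and 8290 nt, with whole counts, rose from 7.94 and 7.74 CPM to 23.3 and 21.2 CPM (log2 change 1.47 ± 0.22, edgeR adjusted p = 0.003). A cluster of 4 transcripts and 803 nt rose from 7.3 and 7.9 CPM to 18.1 and 22.3 CPM (1.39 ± 0.2, edgeR adjusted p = 0.00264). A cluster of 6 transcripts and 2025 nt rose from 9.01 and 9.72 CPM to 21.3 and 21.9 CPM (1.17 ± 0.18, edgeR adjusted p = 0.003). Rises of abundant transcripts were smaller. A cluster of 3 transcripts and 1533 nt rose from 166 and 187 CPM to 314 and 293 CPM (0.75 ± 0.08, edgeR adjusted p = 0.000259), and one of 4 transcripts and 2882 nt from 126 and 139 CPM to 218 and 217 CPM (0.69 ± 0.1, edgeR adjusted p = 0.00262).

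The 18 lower members had transcripts of 1752 to 7843 nt, with a median of 3386 nt, and none had whole counts in all libraries. The call with the lowest p among all lower clusters was a cluster of 5 transcripts and 1970 nt, which fell from 596 and 564 CPM to 335 and 332 CPM (log2 change -0.82 ± 0.08, edgeR adjusted p = 6.02e-05). The largest fall among lower clusters over 100 CPM was that of a single-transcript cluster of 1752 nt, from 471 and 430 CPM to 223 and 255 CPM (-0.94 ± 0.11, edgeR adjusted p = 0.000285). A cluster of 2 transcripts and 6884 nt fell from 83.7 and 97.3 CPM to 45.7 and 45.8 CPM (-1.01 ± 0.11, edgeR adjusted p = 0.000249). A cluster of 3 transcripts and 6366 nt fell from 540 and 513 CPM to 312 and 318 CPM (-0.77 ± 0.08, edgeR adjusted p = 0.000152), and one of 4 transcripts and 6665 nt from 782 and 821 CPM to 570 and 551 CPM (-0.54 ± 0.08, edgeR adjusted p = 0.003). In each of these the libraries of a group lay close together and the groups did not overlap, which their selection largely fixed. All 389 lower calls had no overlap. A pair of clusters of 5233 nt had equal rounded counts in all 10 libraries and a log2 change of -0.91 each, so it may be 1 measurement listed under 2 numbers. No other called clusters had equal rounded counts.

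The exception among the lower members was a cluster of 2210 nt with 0 counts in both SAM libraries and 21.1 and 36 in the control. The next number in the list, of 2268 nt, was called higher, with 24 and 33 counts in SAM against 9.9 and 0. Summed, the pair changed by 0.18 ± 0.26 log2 units (SE, edgeR adjusted p = 0.734), so no change of their joint level was detectable. Neighbouring clusters with divided reads whose counts sum to whole numbers within 0.02 formed 172 such pairs. In 7 of them a member was called, in 1, the pair above, the members were called in opposite directions, and in 5 of the 7 the sum was called. After summing all pairs, 699 clusters were called, 302 higher and 397 lower.

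The rule for identified clusters took called clusters with a mean of at least 5 CPM, whole counts in all 10 libraries and no overlap between the groups, ranked by size of change. Whole counts give no sign of reads divided between clusters, but they cannot exclude shared reads that were all given to the same cluster. The pair of 2210 and 2268 nt had whole counts in SAM, 0 and 0 against 24 and 33. In a control library its reads were divided, at 21.1 and 9.9. The rule admitted 63 higher and 33 lower clusters. No overlap was itself common, with both SAM libraries above both control libraries in 29.9% of tested clusters and below in 23.4%, and all 689 called clusters had it. The ranking among higher clusters begins with clusters 4232 and 23753.

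Cluster 23753 has 1 transcript of 1515 nt and stood at 16.6 and 13.3 CPM in SAM and 3.65 and 5.11 CPM in the control. It held 57 and 59 counts against 17 and 31. The log2 change was 1.71 ± 0.27 (SE, edgeR adjusted p = 0.0039), and the ratio of summed counts was 3.3 (95% exact interval 2.33 to 4.71). Without SAM replicate 1 the call ended, at a log2 change of 1.56 and edgeR adjusted p = 0.0548. Ranks 3 to 10 rose by 1.36 to 1.48 log2 units, with edgeR adjusted p from 0.00264 to 0.0408, on 61 to 174 summed counts in SAM and 32 to 84 in the control. Their transcripts ran from 803 to 8554 nt. Of these 8, 6 lost the call without SAM replicate 1. Ranks 5 and 7 kept it in the 18 alternative settings that gave them an adjusted p, which DESeq2 with its filter did not.

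Cluster 14361, first among lower clusters, has 1 transcript of 4515 nt. It stood at 4.37 and 4.51 CPM in SAM and 14.2 and 12.4 CPM in the control, with 15 and 20 counts against 66 and 75. The log2 change was -1.59 ± 0.32 (SE, edgeR adjusted p = 0.0133). The ratio of summed counts was 0.338 (95% exact interval 0.227 to 0.493). The call ended without SAM replicate 1 (log2 change -1.56, edgeR adjusted p = 0.0968), without SAM replicate 2 (-1.63, 0.107) and without guide-only replicate 1 (-1.49, 0.0803).

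Cluster 19768, of 2 transcripts and 1909 nt, came next, at 2.62 and 4.28 CPM against 8.59 and 8.4 CPM. Its log2 change was -1.28 ± 0.34 (SE, edgeR adjusted p = 0.0438). It lost the call without any 1 of the SAM or control libraries, at edgeR adjusted p = 0.248 and 0.113 without SAM replicate 1 or 2 and 0.152 and 0.145 without guide-only replicate 1 or 2, and also without VP64 replicate 1 or 2 (0.0637 and 0.0639), with the replicate block (0.0551) and with the effective length offset (0.0621). Ranks 3 to 10 had log2 changes from -1.23 to -0.76 on 28 to 227 summed counts in SAM and 89 to 518 in the control. All 8 lost the call without SAM replicate 1. Without guide-only replicate 2 the log2 change of rank 5 was -0.67 in place of -1.06 and that of rank 7 was -0.58 in place of -0.89 (edgeR adjusted p = 0.322 and 0.179).

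**Figure D3:**
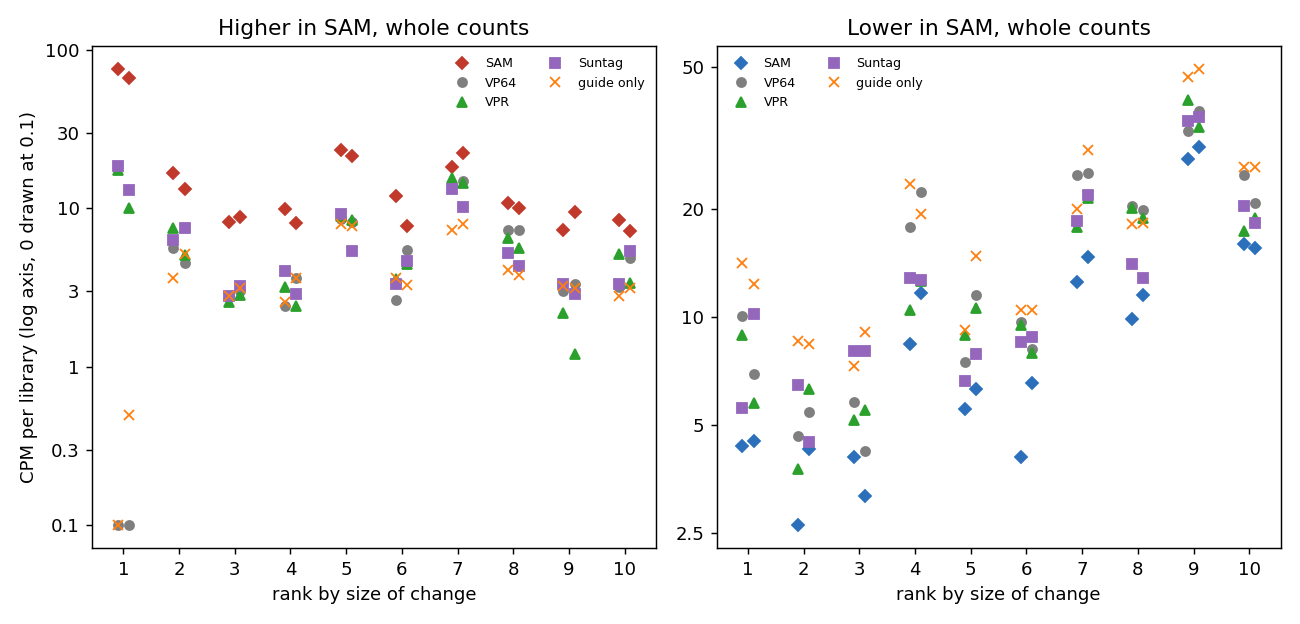
CPM (log axis) in all 10 libraries for the 10 highest ranked higher (left) and lower (right) clusters with whole counts; colour and shape give the group, and each group has 2 points per cluster. Both SAM points (diamonds) lie beyond both guide-only points (crosses) in every column, as the rule requires; cluster 4232, at 75.7 and 66.5 CPM in SAM, has the widest gap.

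Among the most abundant transcripts the changes were small. The most abundant higher cluster, of 4 transcripts and 2187 nt, stood at 3200 and 3180 CPM in SAM against 2550 and 2190 CPM (log2 change 0.4 ± 0.08, edgeR adjusted p = 0.0088). Its call ended without SAM replicate 1 (edgeR adjusted p = 0.0675), SAM replicate 2 (0.0714) or guide-only replicate 2 (0.0927). The most abundant lower cluster, of 1 transcript and 3158 nt, stood at 5120 and 5210 CPM against 6230 and 6370 CPM (-0.31 ± 0.06, edgeR adjusted p = 0.012), and lost its call without any 1 of the 4 libraries (0.0574 to 0.0968). Over 100 CPM, 160 of 2048 clusters were called lower (7.81%) and 43 higher (2.1%), where over all clusters the shares were 2.94% and 2.27%. Between 1 and 10 CPM, 58 of 3386 were called higher (1.71%) and 9 lower (0.266%). The median standard error of the log2 change was 0.0914 over 100 CPM and 0.385 between 1 and 10 CPM, with 0.143 between them.

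Short transcripts were called higher more often than long ones. Of 248 tested clusters under 700 nt, 21 were higher (8.47%) and 1 lower (0.403%). Of 1741 from 700 to 1500 nt, 64 were higher (3.68%) and 8 lower (0.46%). The shares were about equal from 1500 to 3000 nt, at 2.44% and 2.5% of 4991, and turned round over 3000 nt, at 1.49% higher and 4.07% lower of 6261. Over all tested clusters they were 2.27% and 2.94%. The median log2 change fell along the same classes, from 0.232 under 700 nt to 0.111, 0.003 and -0.025.

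The shorter fragments of the SAM libraries moved with this pattern, and their part in it was not tested. Shorter fragments were not particular to SAM. The mean was 113.3 nt in VP64, 112.4 nt in VPR and 93.24 nt in Suntag, against 106.8 nt in SAM and 131.1 nt in the control. With the trend of each library on transcript length removed, 7 clusters under 700 nt were higher (2.82%) and 5 lower (2.02%), where the shares over all clusters were then 2.18% and 2.94%. From 700 to 1500 nt the numbers became 33 and 34. The count over all lengths was 677 (288 higher, 389 lower), of which 580 were among the 689. Over 3000 nt, 208 were still called lower (3.32%) and 123 higher (1.96%). By number of transcripts the classes differed little, with 2.05% higher and 2.7% lower among clusters of 1 transcript, and 2.18% and 3.39% among those of 5 or more.

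**Figure D4:**
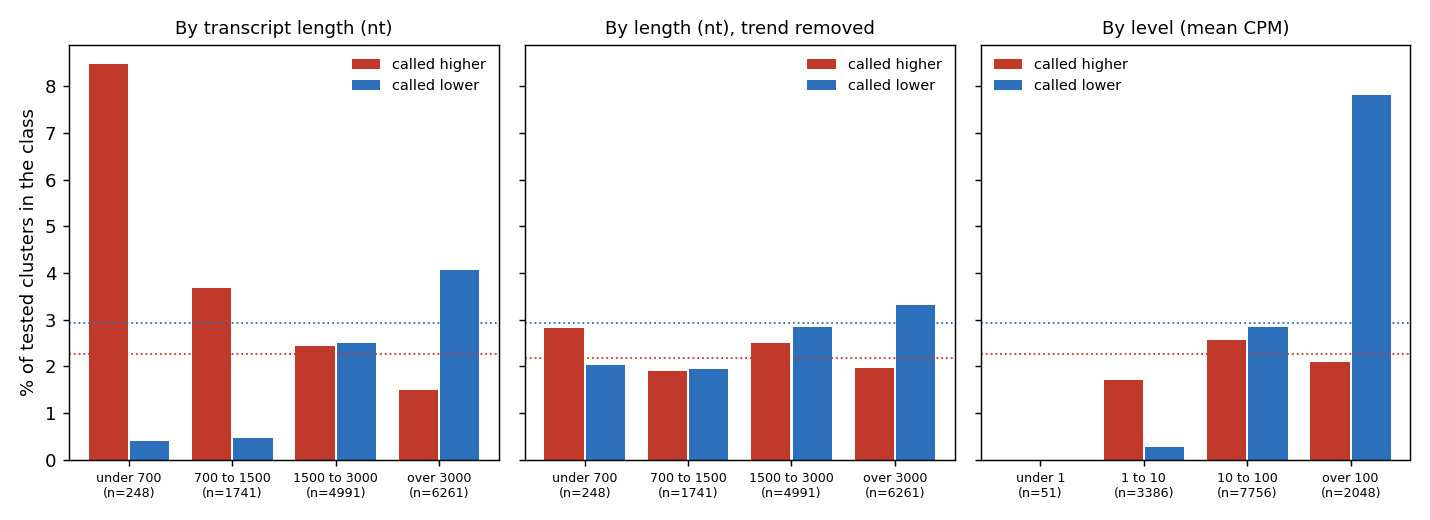
Bars give the share of tested clusters called higher (red) or lower (blue) in SAM, by transcript length as tested, by transcript length with each library's length trend removed, and by mean level; dotted lines mark the share over all clusters. Under 700 nt the higher share is 8.47% as tested and 2.82% with the trend removed, and over 100 CPM the lower share is 7.81%.

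The TPM values gave the same directions in nearly all calls. They derive from the same reads as the counts, and all 689 calls had no overlap in CPM. The selection of the calls therefore largely fixed this outcome. Of the 300 higher clusters 299 had a higher mean TPM in SAM, and 297 had no overlap between the groups. Of the 389 lower clusters all had a lower mean TPM and 384 had no overlap. Over all tested clusters, 27.3% had no overlap with SAM higher and 24% with SAM lower.

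Some transcripts were counted in 1 group only. Counts in both SAM libraries and 0 in both control libraries were found for 283 clusters, of which 116 held 2 or fewer summed counts, and the opposite for 186, of which 78 held 2 or fewer. A sum of 10 or more counts was reached by 16 clusters found in SAM only, 4 of them with whole counts, and by 10 found in the control only, 2 of them with whole counts. The deepest whole-count cluster found in SAM only held 19 counts and was at least 8.64-fold higher, taking a floor of 3 counts over the control group. In the other direction the deepest held 11 counts and was at least 2.69-fold lower in SAM. Of the 7 that could be tested on each side, 1 was called. On the control side it was the cluster of 2210 nt described above. Summed with its neighbour of 2268 nt, it showed no detectable change (log2 change 0.18, edgeR adjusted p = 0.734).

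One abundant cluster with a large difference was not called. It has 1 transcript of 978 nt, held 826 and 1593 counts in SAM, and 0 and 367 in the guide-only libraries (log2 change 3.19 ± 1.01, edgeR adjusted p = 0.0796). One Suntag library also held 0 while the other held 1258, so libraries of 1 group lay far apart. Its counts were not whole.

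A change in which transcripts of a cluster are used shows in the mean transcript length that RSEM weights by abundance, apart from the cluster's level. This length was tested with limma in 7813 clusters of 2 or more transcripts. It was called in 2 (0.0256%), both shorter in SAM, and 548 had an unadjusted p under 0.05. The 2 clusters have 4 transcripts each and the same values, so they may be 1 measurement. Their mean length was 4040 and 4106 nt in SAM and 4514 and 4548 nt in the control, a log2 change of -0.154 ± 0.0106 (SE, adjusted p = 0.0352), and 4405 to 4575 nt in the other 6 libraries. The level of these clusters was not called, with a log2 change of -0.02. The SAM libraries lie below all other libraries, on 68 and 96 counts. Without any 1 of the VP64, VPR, Suntag or control libraries no cluster was called shorter, so the call did not hold in those 8 fits. Without SAM replicate 1 or 2, which leaves SAM with 1 library, more clusters were called, most of them shorter in SAM.

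No cluster called in level was also called in length. Of 182 tested clusters called higher in level, 0 were called in length and 18 had an unadjusted p under 0.05 (9.89%), and of 303 called lower, 0 and 27 (8.91%), against 7.01% over all 7813. The median size of the length change was 0.767% over all, 0.864% among higher and 0.768% among lower clusters. A shift of 1.2-fold or more was fitted for 117 clusters, of which 1 was higher and 4 lower in level. On simulated lengths, shifts of 1.2-fold planted in 200 clusters at once were called in 81.5% of them. That many true shifts loosen the adjusted threshold, so this share may not hold for the real lengths. Among the fitted shifts of 1.2-fold or more, 0 were called, so shifts of that size and smaller ones may have been missed.

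Clusters that changed against the control were also compared between SAM and each other activator. These contrasts use the same SAM libraries as the calls, so their counts are not independent of them. Of the 300 higher clusters, 95 were also higher than in VP64, 78 than in VPR and 57 than in Suntag, where 1.52%, 2.11% and 0.717% of all clusters were. Of the 389 lower clusters, 166 were lower than in VP64, 125 than in VPR and 60 than in Suntag, against 2.77%, 3.56% and 1% of all. In all 3 contrasts together, 31 higher and 42 lower clusters passed, where 0.272% of all tested clusters were higher and 0.446% lower in all 3. None of the 3 was passed by 164 higher and 187 lower clusters, as by 91.7% of all. These contrasts rest on single libraries as well. Against VP64 the calls over all clusters went from 568 to 12 without VP64 replicate 1, and without SAM replicate 1 they went from 752 to 9 against VPR and from 228 to 3 against Suntag. Against VPR, 4 of the higher clusters were called lower in SAM.

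On the scale of log2 CPM less the control mean, the 300 higher clusters had medians of 0.64 and 0.63 in SAM. Their medians were 0.23 and 0.27 in the VP64 libraries, 0.38 and 0.35 in those of VPR, and 0.3 and 0.24 in those of Suntag. The 389 lower clusters had medians of -0.49 and -0.48 in SAM, -0.18 and -0.19 in VPR, -0.22 and -0.17 in Suntag and -0.1 and -0.12 in VP64. All groups are set against the same control libraries, and the clusters were chosen for their change in SAM. Of the 31 clusters called whichever library was left out, 7 of the 13 higher and 10 of the 18 lower differed from all 3 other activators in the fit of all libraries. Over all tested clusters 0.272% were higher and 0.446% lower in all 3. The 31 were picked through the same SAM libraries, so this difference is partly built in.

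DESeq2 gave fewer calls and hardly any of the large rises. It called 331 clusters, 100 higher and 231 lower, of which 301 were among edgeR's 689. Its filter on low mean counts left 214 of the 689 and 79 of the 86 with at least 2-fold change without an adjusted p. Without that filter, a setting added after seeing the data, it called 267 (96 higher, 171 lower) and 30 of the 86. All 689 clusters had the same direction in both tools. In that setting clusters 4232, 23753 and 14361 were called (DESeq2 adjusted p = 4.52e-16, 0.00571 and 0.0249), and cluster 19768 was not (0.201). Of the 10 ranked clusters in each direction, 4 higher and 3 lower were called there, and the 6 and 7 others had DESeq2 adjusted p from 0.0668 to 0.205 and from 0.0651 to 0.24.

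**Figure D5:**
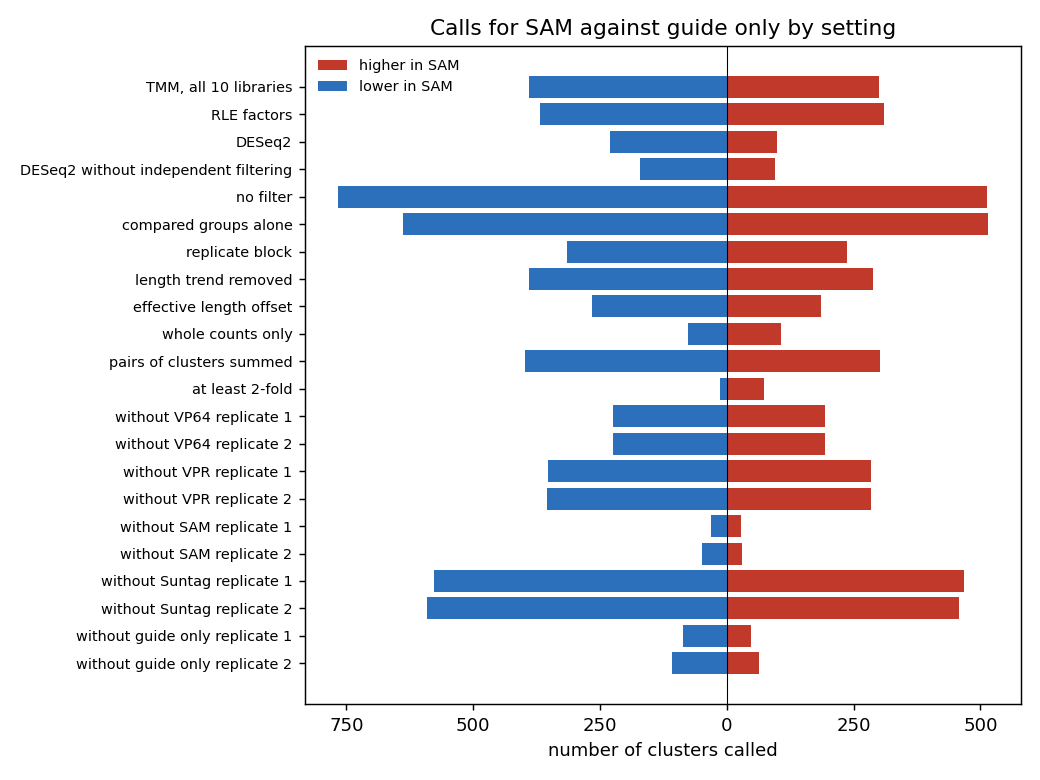
Bars give the number of clusters called higher (right, red) and lower (left, blue) in SAM against guide only under each setting. The fit of all 10 libraries gives 300 and 389; the number falls to 60 in all without SAM replicate 1 and rises to 1280 with no filter on low counts.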

How the data were processed

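Poly(A) RNA of HEK293T cells was sequenced from random-hexamer cDNA after tagmentation, per the labels' protocols. This preparation does not mark strand, so overlapping and antisense genes cannot be told apart. Per the submitters' processing notes the tables come from RSEM 1.2.1 with hg19. The aligner and annotation release are not given in the sources used here. The authors deposited, per the file headers, expected counts (estimated counts, which need not be whole because reads can be divided), TPM values scaled within a library, and transcript and effective lengths. The deposited FPKM values were not used. SAM and control totals ran from 3434486 to 6072335 counts.

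Expected counts were rounded and tested with edgeR 4.0.16 in R 4.3.3 (filterByExpr, TMM, quasi-likelihood F test, all 10 libraries, 1 coefficient per group, 5 residual degrees of freedom), with Benjamini-Hochberg adjustment over the 13241 clusters and a threshold of 0.05. SE is the log2 change over the root of the F statistic. A permutation of 2 libraries against 2 cannot give a two-sided p below 0.333. Log2 transcript length was tested with limma 3.58.1 in clusters of 2 or more transcripts with a mean of at least 50 counts and counts in every library. CPM is scaled by summed expected counts. Counts within 0.01 of an integer were taken as whole. Ratios carry 95% exact intervals, and these and floors cover counting error only. On simulated data for SAM against the control (13017 clusters), edgeR called 49.3%, 82.1% and 86.4% of clusters changed 1.5-, 2- and 4-fold, and 3.97% of calls were false. The simulated spread followed the fitted trend over level alone, without spread particular to a cluster, divided reads or length effects. These shares may therefore not hold for the real libraries.

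Identified clusters were called, had at least 5 CPM, whole counts and no overlap between groups, and the first 2 in each direction are given by number, since no gene names accompany the identifiers. Lists of globin, NF-kB target, heat shock, interferon and unfolded protein response genes, of RELA and HSF1, and of cell line markers could not be used for the same reason. Members, lists and settings were chosen with earlier results of these data known. Alternatives were RLE factors, DESeq2 1.42.0, no filter, the compared groups alone, a replicate block, each library left out, a minimum fold, 2 length corrections, whole counts alone and summed pairs.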

Additional observations from a re-analysis of the deposited data

Results flagged for a closer look

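A difference between activators, tested by edgeR in the fit of all 10 libraries, drew attention to 7 of the clusters described singly, in which SAM differed from VP64, VPR and Suntag each. The least of these 3 log2 differences, SAM minus the other activator, was 2.1 for cluster 4232 and 1.04 for cluster 23753. It was 1.43 for the cluster ranked 3 among higher ones, of 8554 nt, and 1.25 for the one ranked 5, of 8290 nt. It was 2.07 for the abundant cluster of 2153 nt. Among lower clusters it was -0.7 for the one of 1970 nt and -0.49 for the one of 1752 nt. The 2 lower clusters and the one of 2153 nt have counts that are not whole. All 7 were picked for their values in SAM, and the contrasts use the same SAM libraries, so these differences are partly built in. Over all tested clusters, 0.272% were higher and 0.446% lower in all 3 contrasts. Cluster 23753 against Suntag lay near the threshold (edgeR adjusted p = 0.0467).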

How the results depend on the processing

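RLE factors, removal of the length trend and summed pairs left the count for SAM against the control within 1.5 times of 689. DESeq2 gave 331, DESeq2 without its filter 267, an effective length offset 450 and a minimum of 2-fold 86. Some settings tested a different number of clusters. No filter on low counts gave 1280 of 19963 tested, and the compared groups alone 1154 of 12680. Whole counts alone gave 183 of 2829 tested (106 higher, 77 lower). In the fit of all clusters, 82 of the 2879 with whole counts were called higher and 33 lower. Leaving out 1 library gave 60 to 1047. SAM against VP64 had 568 calls, 338 by DESeq2 and 12 (without VP64 replicate 1) to 936 with 1 library left out. SAM against VPR had 752, 417 by DESeq2, 293 with the length trend removed and 9 (without SAM replicate 1) to 1186. SAM against Suntag had 228 and 3 (without SAM replicate 1) to 622. For length within clusters limma called 0 at a mean of 200 counts, in the compared groups alone, with the replicate block and at 1.2-fold, with 300, 588, 571 and 548 at an unadjusted p under 0.05, and 0 to 27 with 1 library left out, the most without SAM replicate 2.

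Same-numbered libraries of SAM and the control did not deviate together (correlation 0.0267, and -0.0672 to 0.062 over all 10 pairs of groups). Their titles share only a number, and a low correlation cannot exclude a shared culture or preparation. With the replicate block there were 553 calls for SAM against the control, 465 against VP64, 623 against VPR and 149 against Suntag. For the 27 clusters described singly, 485 alternative values were computed: 405 kept direction and call, 80 kept direction and lost the call, 72 of these with 1 library left out, and 0 changed direction. The cause of these shifts was not tested. The 485 values leave out clusters to which DESeq2 with its filter gave no adjusted p. DESeq2 without that filter is also left out. In it, 6 of the 10 ranked higher and 7 of the 10 ranked lower clusters were not called. At these depths, rises of clusters under 10 CPM rest on few reads.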
